A study of Homo sapiens with 36 samples.

Results

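CCL2, CCL5, CCL20, CCL26, CCL28 and CX3CL1 are the chemokine genes of the CC and CX3C classes described here, 6 of the 63677 genes in the count tables. They were chosen by name, from the symbols that the Ensembl identifiers of the tables map to, and not by a measured value. Of the 6 genes, 5 had enough counts to be tested, and CCL5 had 0 counts under its annotated identifier in all 36 libraries. Positions on GRCh37, the build of the count tables, are chr17:32582293-32584227 on the plus strand for CCL2 (ENSG00000108691), chr2:228670455-228682280 on the plus strand for CCL20 (ENSG00000115009) and chr7:75398851-75419214 on the minus strand for CCL26 (ENSG00000006606). CCL28 (ENSG00000151882) lies at chr5:43376747-43412493 on the minus strand, CX3CL1 (ENSG00000006210) at chr16:57406389-57418956 on the plus strand, and CCL5 (ENSG00000271503) at chr17:34198495-34207797 on the minus strand. All are protein-coding, counts were taken over exons, and no exon of another annotated gene overlaps theirs.

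The cells were A549, a human lung adenocarcinoma line, labelled Control or IL1beta treated. The treated cells received IL-1β at 1 ng/ml and were harvested at days 6, 15 and 21 of exposure or, after 21 days of exposure, at days 6, 15 and 30 following withdrawal. Untreated cells were harvested at the same 6 time points, with 3 libraries in each of the 12 groups. All groups were the same unmodified line in the same medium, passaged throughout, so the data describe 1 line in monoculture without the leukocytes on which these chemokines act. The labels call the replicates biological but do not say that they came from separate cultures, so p-values measure the spread between these libraries, which may be technical.

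Chemokines are small secreted proteins that direct the migration of leukocytes through G protein-coupled receptors, and the class names describe the spacing of the first cysteines of the mature protein. In airway epithelium, IL-1β acts through the NF-κB pathway to switch on chemokines such as CCL2 and CCL20, whereas CCL26 is best known as a target of IL-4 and IL-13 acting through STAT6. CX3CL1 differs from the rest in being made as a membrane-anchored protein that proteases shed from the cell surface.

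Sequences upstream of the annotated start, 250 bases from RefSeq on GRCh38.p14, a later build than that of the count tables, were at hand for CCL20, CCL26 and CCL28 and not for CCL2, CCL5 and CX3CL1. Those of CCL20 and CCL26 are shown because these genes differed in when their response passed the test. The window of CCL20 is chr2:227813592-227813841 on the plus strand and that of CCL26 is chr7:75789747-75789996 on the minus strand. Both are written 5′ to 3′ in the sense of the gene, ending at the base before the start, with a match to the kappa-B consensus in capitals.
CCL20: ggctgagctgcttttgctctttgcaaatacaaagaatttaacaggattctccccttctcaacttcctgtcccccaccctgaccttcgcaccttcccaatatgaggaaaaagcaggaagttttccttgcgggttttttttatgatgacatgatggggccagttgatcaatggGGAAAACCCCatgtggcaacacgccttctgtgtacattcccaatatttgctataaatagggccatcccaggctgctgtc
CCL26: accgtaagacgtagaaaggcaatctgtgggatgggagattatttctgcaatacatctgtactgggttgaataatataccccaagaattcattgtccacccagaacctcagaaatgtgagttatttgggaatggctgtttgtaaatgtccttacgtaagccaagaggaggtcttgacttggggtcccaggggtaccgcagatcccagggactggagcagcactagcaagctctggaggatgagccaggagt
The capitals in CCL20 stand at bases -79 to -70 from the start and match the consensus when read on the strand opposite to the gene. On both strands, the kappa-B consensus was found in 5.21% of 35116 promoter windows of this length. The AP-1 letters TGANTCA (6.57% of windows) and the STAT letters, TTC and GAA with 4 bases between them (5.38% of windows), were found in none of the windows of CCL20, CCL26 and CCL28, and the kappa-B consensus was not found in those of CCL26 and CCL28. A match is a string of letters and not a measured binding site, and its absence concerns this window only.

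Between 9116032 and 23570026 counts per library fell on genes. The share of counts on mitochondrial genes was 11.8% to 24.6% in 11 libraries and 5.61% to 7.75% in the other 25. These 11 libraries, 6 of control and 5 of exposed cells, include 8 collected after withdrawal and 8 with replicate number 2. They left a single control library of low mitochondrial share at day 6 and at day 15 after withdrawal. Calls that changed without them, and called values that moved by more than 1.5 times, are given both ways, and a lone library is then assumed to vary like the other groups. The epithelial keratins KRT8 (537.6 to 4818 CPM) and KRT7 (1146 to 2189 CPM) were abundant in every library, and EPCAM stayed at or below 1.63 CPM. The summed CPM of 8 alveolar type II markers was 13.1 to 37.3 in control and 8.35 to 36.7 in exposed libraries. Among them, ABCA3 had 6.62 to 35.96 CPM and SFTPC stayed at or below 0.261 CPM. Of 5 tested epithelial markers, 3 (KRT8, KRT18 and CDH1) were lower with IL-1β at each of days 6, 15 and 21, with log2 fold changes of -2.39 to -1.10, and 2, 0 and 0 were lower after withdrawal by edgeR (3, 0 and 0 by DESeq2, and 3, 4 and 2 at an unadjusted p under 0.05). Their summed CPM over 6 markers was 4202 to 9161 in control and 2045 to 6732 in exposed libraries. COL1A1, the 1 tested fibroblast marker, was higher at days 6 and 21 of IL-1β (1.02 and 1.24). The call at day 6 (adjusted p = 0.0441, edgeR) was not made by DESeq2, and that at day 21 was. The part of these changes in the chemokine values was not tested. The summed CPM of 5 endothelial markers stayed at or below 0.77 and that of 7 fibroblast markers at or below 4.46. The summed CPM of 12 leukocyte markers was 10.3 to 20.7 in control and 8.76 to 31.4 in exposed libraries. ITGAM (3.44 to 14.62 CPM) and CD14 (1.67 to 16.35 CPM) had counts in every library, and CD3E had 0 counts in all.

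Expression is given as CPM, counts scaled to a common library size with edgeR's TMM factors. A gene is called higher or lower, and is said to have risen or fallen, when the adjusted p was under 0.05 and the log2 fold change was beyond 1. Unless another test, fit or set of libraries is named, p-values are from edgeR's quasi-likelihood test in 1 model of the 36 libraries. Adjustment in that model was by Benjamini-Hochberg over 19180 genes. At day 6 of IL-1β, 2 of the 5 tested members were higher (CCL2 and CCL20) and 1 was lower (CCL28), where 1.52% and 1.25% of the tested genes were higher and lower. At days 15 and 21 of IL-1β, CCL2 and CCL20 were the 2 members called, both higher, as were 1.94% and 2.19% of tested genes. After withdrawal, the 2 higher members were CCL2 and CCL20 at day 6, and CCL20 and CCL26 at days 15 and 30, beside 1.08%, 0.594% and 0.433% of tested genes. Counted in both directions, 2.77%, 4.24% and 4.26% of tested genes were called at the time points with IL-1β and 1.8%, 0.954% and 0.897% at those without. Fitted alone, with 6 libraries and the spread estimated from them, the comparisons after withdrawal gave 0 calls of 5 members at each of the 3 time points, and DESeq2 on all libraries gave 2 at each. Control cells of day 30 after withdrawal did not differ from those of day 6 in a call of any member (0 of 5, 0 at an unadjusted p under 0.05 and 0 by DESeq2, edgeR background 0.0104%). RNA from whole cultures cannot tell fewer cells making a chemokine apart from less of its RNA per cell.

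**Figure D1:**
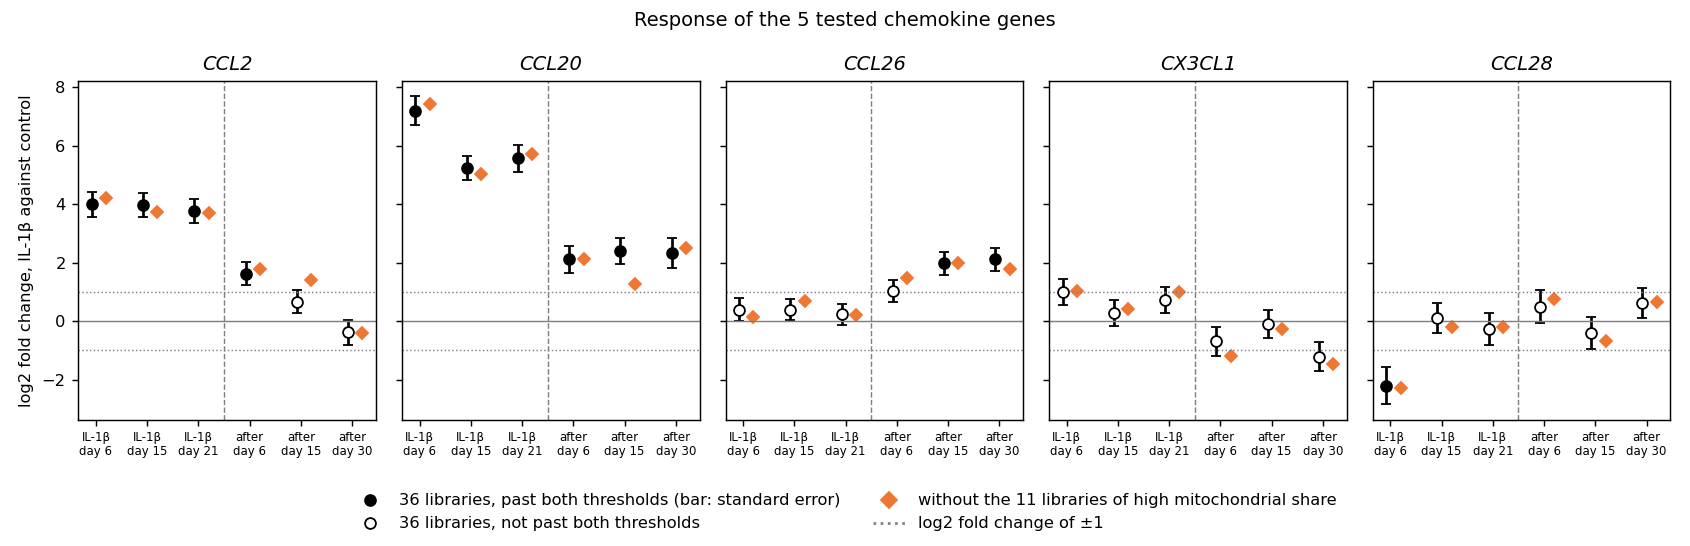
Log2 fold change of each tested chemokine gene, IL-1β against control, at the 6 time points. Circles are the values from 36 libraries with their standard error as bars, filled when past both thresholds, and diamonds are the values without the 11 libraries of high mitochondrial share. CCL20 stays above 2 at every time point with all libraries, CCL2 runs from 4.00 at day 6 of IL-1β to -0.38 at day 30 after withdrawal, and CCL26 runs from 0.39 to 2.11.

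CCL20, the ligand of CCR6 that attracts dendritic cells and Th17 lymphocytes, rose at each of the 6 time points, by 146.9-fold at day 6 of IL-1β and by 4.34- to 5.25-fold after withdrawal. In the control libraries, replicates 1 to 3 had 0.262, 0.348 and 0.177 CPM at day 6, 0.532, 0.867 and 0.94 CPM at day 15 and 0.57, 0.362 and 0.159 CPM at day 21. The control counts were 3 to 4 per library at day 6, 9 to 19 at day 15 and 4 to 10 at day 21. Counting error in these controls limits the fold changes and their comparison, above all the 146.9-fold at day 6. The exposed libraries had 43.9, 40.0 and 31.6 CPM at day 6, 25.1, 26.7 and 38.4 CPM at day 15 and 16.3, 14.4 and 20.0 CPM at day 21. Each exposed library lay above every control of its day, as in 10.6%, 11.5% and 13.8% of tested genes, and the 3 exposed libraries of day 21 lay below all those of days 6 and 15. The log2 fold change was 7.20 at day 6 (standard error 0.49), 5.24 at day 15 (0.42) and 5.57 at day 21 (0.45), with adjusted p of 4.32e-11, 1.91e-09 and 1.29e-09 by edgeR. The response at day 21 was lower than that at day 6 by 1.63 in log2, a difference that was not called (error 0.68, adjusted p = 1.00, edgeR).

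After withdrawal, control replicates 1 to 3 had 0.774, 0.259 and 0.515 CPM of CCL20 at day 6, 1.04, 0.102 and 0.305 CPM at day 15 and 0.215, 0.386 and 0.246 CPM at day 30. The cells withdrawn from IL-1β had 2.24, 2.09 and 2.2 CPM at day 6, 3.08, 3.49 and 2.05 CPM at day 15 and 2.10, 1.30 and 0.748 CPM at day 30. At each time point the ranges did not overlap, which was so with the exposed cells above in 5.51%, 6.02% and 6.78% of tested genes. The log2 fold change was 2.12 at day 6 (standard error 0.46), 2.39 at day 15 (0.45) and 2.34 at day 30 (0.51), with adjusted p of 0.00689, 0.00336 and 0.0143 by edgeR. These are 29.4%, 33.2% and 32.5% of the log2 fold change at day 6 of IL-1β, and 38.0%, 43.0% and 42.1% of that at day 21. Both shares are limited by the low counts of the controls, 3 to 4 per library at day 6 of IL-1β and 4 to 10 at day 21. Between days 6 and 30 after withdrawal, the response differed by 0.22 (standard error 0.67, adjusted p = 1.00, edgeR). Over these days, 0 of the 5 members were called for a change of response (1 at an unadjusted p under 0.05, 0 by DESeq2), beside 0.00521% of tested genes. The member with the low unadjusted p was CCL2 (-2.005, standard error 0.58, unadjusted p = 0.00185, edgeR). CCL2 was called with the mitochondrial share as a covariate (-2.24, adjusted p = 0.0091, edgeR). From day 6 to day 21 of IL-1β the count was also 0 (2 at an unadjusted p under 0.05, 0 by DESeq2), beside 0.0104%.

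In separate fits of each time point after withdrawal, CCL20 had adjusted p of 0.146, 0.367 and 0.424 (edgeR) and was not called. The retained response of CCL20 rested on 1 to 16 counts per control library after withdrawal, and the calls varied with single libraries. At day 6, the call was lost without control replicate 2 (1.84, adjusted p = 0.0543, edgeR) or control replicate 3 (2.17, adjusted p = 0.0596). At day 30 it was lost without control replicate 1 (2.19, adjusted p = 0.0722), control replicate 3 (2.28, 0.119), exposed replicate 1 (1.91, 0.15) or exposed replicate 2 (2.37, 0.0518, all by edgeR). At day 15 it held without each library in turn, with values of 1.98 to 3.76, the highest without control replicate 1. Without the libraries of high mitochondrial share, the value was 2.11 at day 6 (adjusted p = 0.0322), 1.28 at day 15 (adjusted p = 0.556) and 2.50 at day 30 (adjusted p = 0.0309, edgeR). The control left at day 15 is then the library of 1.04 CPM. CCL20 itself differed by 0.05 in log2 between libraries of high and low mitochondrial share (standard error 0.19, adjusted p = 0.827, edgeR).

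CCL2, the monocyte chemoattractant that acts through CCR2, rose during exposure and was still higher at day 6 after withdrawal, but was not called at days 15 and 30. With IL-1β, replicates 1 to 3 had 38.4, 40.2 and 46.0 CPM at day 6, 34.2, 34.9 and 54.0 CPM at day 15 and 29.4, 41.2 and 39.9 CPM at day 21, when the 9 control libraries lay between 1.63 and 3.31 CPM. The exposed means were 15.9, 15.8 and 13.7 times the control means at the 3 time points, and the exposed libraries of these time points overlapped one another. Withdrawn cells had 8.68, 13.7 and 5.21 CPM at day 6, against 3.61, 3.37 and 2.06 CPM in their controls. At day 15 they had 3.91, 6.62 and 4.01 CPM against 1.49, 4.28 and 3.56 CPM, and at day 30 1.36, 2.60 and 1.12 CPM against 2.04, 3.60 and 1.28 CPM. The ranges were apart at day 6 and overlapped at days 15 and 30, and at day 30 each exposed library lay below the control of the same replicate number. Ordered by mean, the 12 groups fell from 41.5 CPM at day 6 of IL-1β to 1.69 CPM in the cells of day 30 after withdrawal, and of the 11 neighbouring pairs only day 21 of IL-1β and day 6 after withdrawal had ranges apart.

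The call of CCL2 at day 6 after withdrawal (log2 fold change 1.62, standard error 0.40, 3.08-fold) was lost without exposed replicate 1 (1.66, adjusted p = 0.0581, edgeR), exposed replicate 2 (1.24, adjusted p = 0.145) or control replicate 3 (1.38, adjusted p = 0.165), and in a separate fit (adjusted p = 0.327). CCL2 moved with the mitochondrial share. Its level was 0.77 higher in log2 in libraries of high share in a fit with that share as a covariate (standard error 0.12, adjusted p = 1.75e-06, edgeR). In that fit, CCL2 was 1.83 at day 6 after withdrawal (adjusted p = 6.91e-06, edgeR) and was called. At day 15 it was 0.95 (adjusted p = 0.0346, edgeR), under the threshold of size and not called. Why CCL2 was higher in the libraries of high share was not tested. Without these libraries, CCL2 was 1.77 at day 6 (adjusted p = 0.00796) and 1.41 at day 15 after withdrawal (adjusted p = 0.291, edgeR), where it was 0.66 with all libraries.

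**Figure D2:**
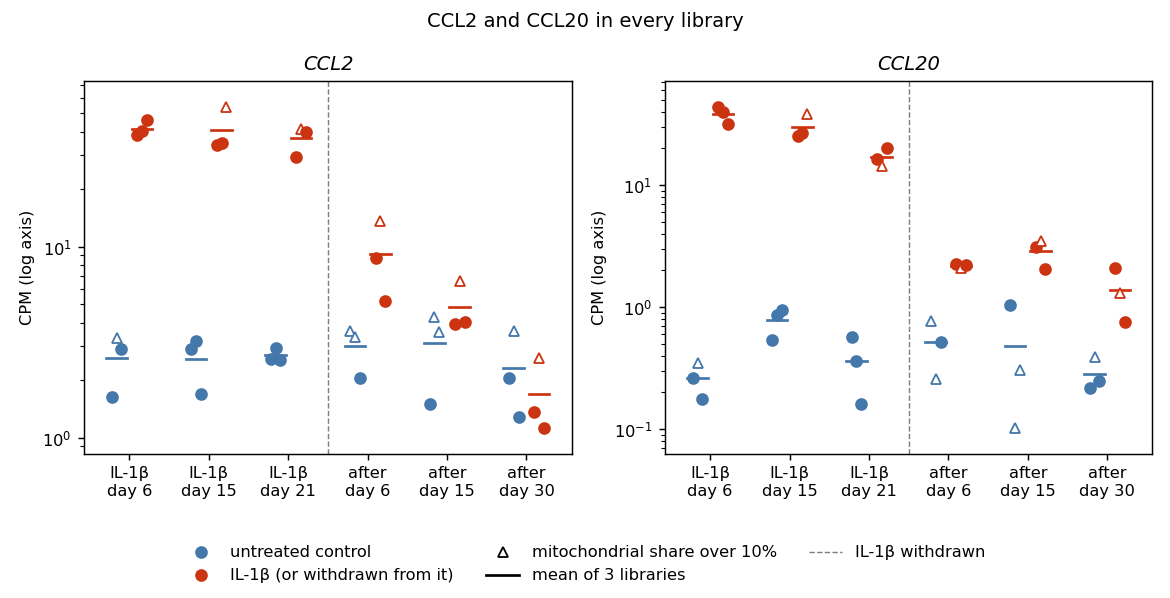
CPM of CCL2 and CCL20 in each of the 36 libraries on a log axis, with control libraries in blue, exposed libraries in red and the mean of the 3 libraries as a line. Open triangles are libraries with over 10% of counts on mitochondrial genes. For CCL20 the red points lie above the blue at all 6 time points, and for CCL2 they meet them at days 15 and 30 after withdrawal.

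CCL2 and CCL20 correlated across the 36 libraries with a Pearson r of 0.895 on log2 CPM, a description of points that share their groups, libraries and depth. The change of each response from day 21 of IL-1β was tested directly. For CCL20 it was -3.45 in log2 at day 6 after withdrawal, -3.18 at day 15 and -3.23 at day 30 (standard errors 0.66, 0.65 and 0.74, adjusted p = 0.0121, 0.0182 and 0.027, edgeR). For CCL2 it was -2.15 at day 6, not called (standard error 0.55, adjusted p = 0.183, edgeR), and -3.11 at day 15 and -4.15 at day 30 (0.56 and 0.58), both called. Members whose response differed from day 21 thus numbered 1, 2 and 2 of 5 at days 6, 15 and 30 after withdrawal, beside 0.136%, 0.386% and 0.626% of tested genes. CCL2 at day 6 was called under 6 of 14 other settings, among them DESeq2 (-2.15, adjusted p = 0.0401). By edgeR, these included the likelihood ratio test (adjusted p = 0.0442), total counts in place of TMM (0.0382) and replicate number as a block (0.0463). The rest were the mitochondrial share as a covariate (adjusted p = 0.0109, edgeR) and share and block together (0.0158). The difference between CCL2 and CCL20 in these changes was not tested.

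The calls for CCL2 at days 15 and 30 held without each of 12 libraries, whereas those for CCL20 did not. Without all libraries of 1 replicate number, the CCL2 call at day 15 was lost for each number (adjusted p of 0.0626 to 0.343, edgeR). The CCL2 call at day 30 was then lost without replicate 1 (-4.24, adjusted p = 0.121, edgeR), and those of CCL20 were lost for each number. At day 6 the CCL20 call was lost without control replicate 1 or 3 of day 6 after withdrawal (-3.20 and -3.40) or control replicate 3 of day 21 (-3.04, adjusted p of 0.0832, 0.116 and 0.0763 by edgeR). At day 15 it was lost without control replicate 1 or exposed replicate 3 of day 15 after withdrawal (-1.81 and -2.97) or control replicate 3 of day 21 (-2.76, adjusted p of 0.573, 0.0639 and 0.0876 by edgeR). At day 30 it was lost without any of 9 of the 12 libraries, with values between -3.71 and -2.81 over the 12 and an adjusted p of up to 0.108 (edgeR). The 3 libraries without which it held were control replicate 1 and exposed replicate 2 of day 21 and exposed replicate 1 of day 30 after withdrawal. Without the libraries of high mitochondrial share, CCL2 at day 15 was -2.30 (adjusted p = 0.0837) and CCL20 at days 6 and 30 was -3.62 and -3.22 (adjusted p = 0.0935 and 0.0876, edgeR), and these calls were lost. CCL20 at day 15 was then -4.45 and still called (adjusted p = 0.00517, edgeR), against -3.18 with all libraries. In separate fits all 3 calls of CCL20 were lost (adjusted p = 0.0585, 0.156 and 0.11, edgeR).

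CCL26, or eotaxin-3, a CCR3 ligand that attracts eosinophils, was not called during exposure and was higher than in control cells at days 15 and 30 after withdrawal. At days 6, 15 and 21 of IL-1β, exposed replicates 1 to 3 had 1.86, 2.48 and 1.95 CPM, 3.40, 3.60 and 1.34 CPM, and 3.26, 3.37 and 2.91 CPM. The controls of these days had 1.83, 0.87 and 2.01 CPM, 1.95, 2.71 and 1.83 CPM, and 2.51, 3.32 and 2.27 CPM, overlapping the exposed libraries at each. The log2 fold changes were 0.39, 0.40 and 0.24 (standard errors 0.39, 0.37 and 0.36, adjusted p = 0.895, 0.605 and 1.00, edgeR).

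At days 6, 15 and 30 after withdrawal, the withdrawn cells had 6.33, 1.85 and 3.71 CPM, 6.16, 4.44 and 4.66 CPM, and 4.75, 5.20 and 3.46 CPM of CCL26. Their controls had 2.58, 1.64 and 1.85 CPM, 1.36, 1.12 and 1.32 CPM, and 1.67, 0.515 and 0.738 CPM. At days 15 and 30 each exposed library lay above every control, and at day 6 replicate 2, of high mitochondrial share, lay among the controls. The log2 fold change was 1.03 at day 6 (standard error 0.38, adjusted p = 0.218), 1.99 at day 15 (0.39, adjusted p = 0.00543) and 2.11 at day 30 (0.39, adjusted p = 0.00371, edgeR), 2.04-, 3.97- and 4.32-fold. The mean was 3.18 CPM at day 21 of IL-1β and 4.47 CPM at day 30 after withdrawal in exposed cells, and 2.70 and 0.973 CPM in control cells. The change within each group between these days was not tested. The response at days 15 and 30 differed from that at day 21 by 1.75 and 1.87, neither of them called (standard errors 0.53, adjusted p = 0.282 and 0.137, edgeR), and the call of this change varied with the setting.

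In separate fits, CCL26 had adjusted p of 0.0976 at day 15 and 0.363 at day 30 (edgeR) and was not called. The call of CCL26 at day 15 held without each library in turn, with values of 1.83 to 2.08, and that at day 30 was lost without control replicate 3 (1.89, adjusted p = 0.0639, edgeR) and was 2.75 without control replicate 1. Without the libraries of high mitochondrial share, CCL26 was called at day 6 after withdrawal (1.46, adjusted p = 0.0423) and at day 30 (1.77, adjusted p = 0.00983), and not at day 15 (1.98, adjusted p = 0.0772, edgeR). Set against day 21 of IL-1β, the response at day 15 was called in separate fits (1.75, adjusted p = 0.0443, edgeR). That at day 30 was called with the share as a covariate (1.79, adjusted p = 0.0492, edgeR), by DESeq2's Wald test (1.84, adjusted p = 0.0483), by edgeR's likelihood ratio test (1.86, adjusted p = 0.0436), and without control replicate 1 of day 30 after withdrawal (2.51, adjusted p = 0.032, edgeR).

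CX3CL1, or fractalkine, the ligand of CX3CR1 on monocytes and cytotoxic lymphocytes, was not called at any time point (0 of 6 by edgeR and by DESeq2, with an unadjusted p under 0.05 at day 6 of IL-1β and day 30 after withdrawal). At day 6 of IL-1β, the exposed libraries had 9.18, 7.75 and 3.99 CPM and the controls 3.86, 3.57 and 2.95 CPM. At day 30 after withdrawal, the withdrawn cells had 0.882, 1.10 and 1.26 CPM and the controls 2.42, 1.29 and 3.64 CPM. The exposed libraries were thus all above the controls at the former and all below them at the latter, as were 10.6% and 5.11% of tested genes, while the ranges overlapped at the 4 time points between. The log2 fold changes were 1.01 at day 6 of IL-1β (standard error 0.44, adjusted p = 0.324) and -1.21 at day 30 after withdrawal (0.49, adjusted p = 0.394, edgeR), and lay between -0.69 and 0.73 at the others. Compared with day 21, the response at day 30 after withdrawal was -1.94 apart (standard error 0.66, adjusted p = 0.328, edgeR), and with the mitochondrial share as a covariate -2.07 (adjusted p = 0.0493, edgeR), which was called. CX3CL1 differed by -0.75 in log2 between libraries of high and low mitochondrial share (standard error 0.21, adjusted p = 0.00242, edgeR). The cause of this difference was not tested.

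CCL28, a mucosal chemokine that binds CCR10 and CCR3, was near the limit of detection, with 0 to 12 counts per library. At day 6 of IL-1β the exposed libraries had 3, 0 and 2 counts and the controls 9, 5 and 8 counts, without overlap, as for 11.2% of tested genes with the exposed cells below. The exposed libraries were all at or below 3 counts, taken as the floor in each library. The control mean was 2.61 times that floor. This ratio of point values leaves out the counting error of the 5 to 9 control counts and is not a bound on the change. The fitted log2 fold change, which depends on the prior count, was -2.21 (standard error 0.64, adjusted p = 0.0427, edgeR), and the call was lost when any of 5 of the 6 libraries was left out (all but exposed replicate 1), with values between -2.97 and -1.74 over the 6 and an adjusted p of up to 0.2 (edgeR). It was also lost with no filter on low counts (-2.17, adjusted p = 0.108, edgeR), with DESeq2 (-2.28, adjusted p = 0.0987), and with the high mitochondrial libraries removed (-2.27, adjusted p = 0.0771, edgeR). At the other 5 time points the log2 fold changes lay between -0.42 and 0.62 and were not called.

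**Figure D3:**
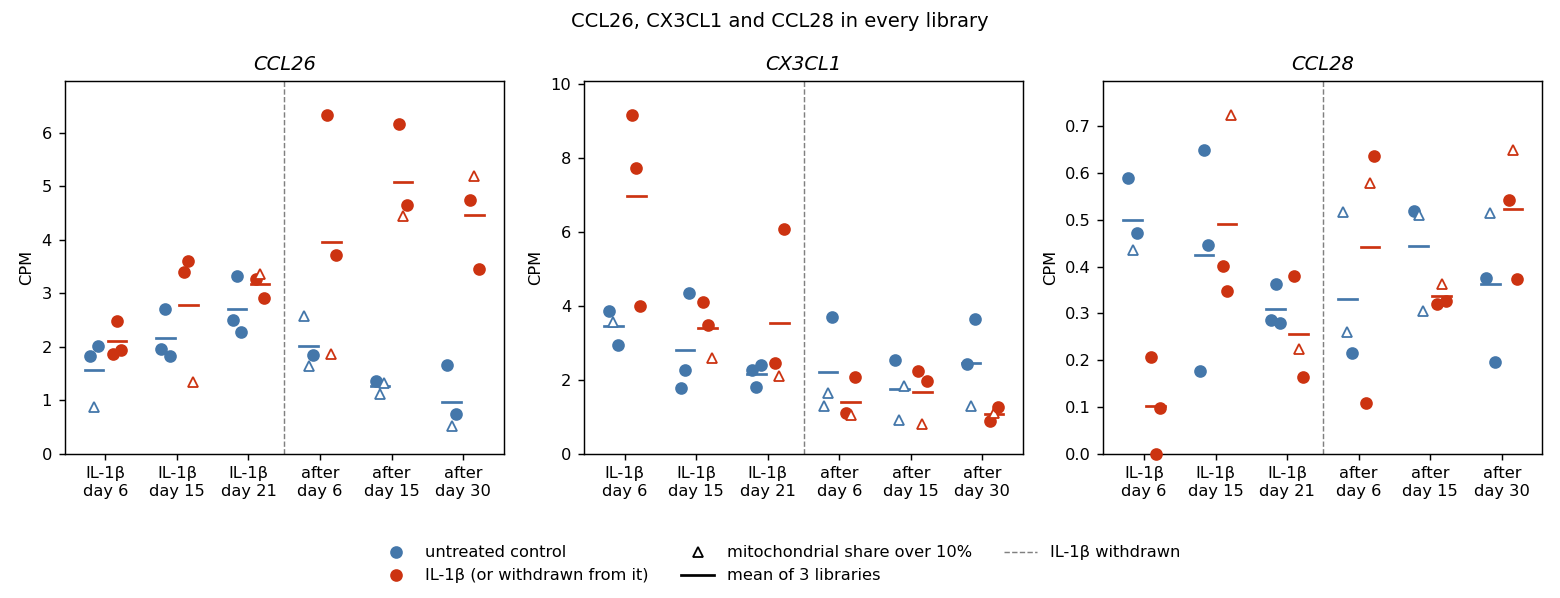
CPM of CCL26, CX3CL1 and CCL28 in each of the 36 libraries on linear axes from 0, with symbols as for CCL2 and CCL20. CCL26 is apart from its controls at days 15 and 30 after withdrawal, CX3CL1 above them at day 6 of IL-1β and below them at day 30 after withdrawal, and CCL28 below them at day 6 of IL-1β.

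Levels of different genes were compared per kilobase of annotated exon, summed over isoforms, from 703 bases for CCL26 to 5960 bases for CX3CL1. In control cells of day 21, CCL26 had 3.84 ± 0.78 CPM per kilobase (SD, n = 3), and CCL2 had 1.39 ± 0.12 CPM per kilobase (SD, n = 3). The order of these genes came from the exon length, since their means were 2.70 and 2.69 CPM. The summed exons of CCL2, 1935 bases, cover its whole annotated span, so its level per kilobase may be understated. The control levels of CX3CL1, CCL20 and CCL28 were 0.362, 0.228 and 0.0682 CPM per kilobase. With IL-1β at day 21, the order was CCL2 (19.0 ± 3.33 CPM per kilobase, SD, n = 3), CCL20 (10.6 ± 1.79), CCL26 (4.52 ± 0.34), CX3CL1 (0.594 ± 0.37) and CCL28 (0.0567 ± 0.025). At day 30 after withdrawal, CCL26 stood at 6.36 ± 1.29 CPM per kilobase in the withdrawn cells (SD, n = 3), above CCL2 at 0.875 ± 0.41 and CCL20 at 0.868 ± 0.43, which did not differ beyond their spread.

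CCL5, a chemokine that attracts T cells, is not given a level. Its annotated identifier belongs to the highest range of identifiers in the tables, in which 43 of 101 protein-coding identifiers (42.57%) had 0 counts in all libraries, against 9.22% of the 19387 identifiers below that range. The annotation release behind the tables is not given in the sources used here, and 8 of the 28 CC chemokines looked up, CCL3, CCL3L3, CCL4, CCL14, CCL15, CCL16, CCL18 and CCL23, were not matched by identifier and are not analysed here. The 0 of CCL5 was therefore not read as an absence of expression.

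Of the 20 CC chemokines with an identifier, 9 had a count and 5 were tested, the 4 members above and CCL22, a CCR4 ligand. CCL22 stayed between 0.204 and 1.04 CPM and was not called, with log2 fold changes of -0.45 to 1.10. The other CC chemokines had at most 13 counts over all libraries, as for CCL24, another eotaxin. XCL1 and XCL2 had 14 and 5 counts over all libraries.

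Receptors of CC and CX3C chemokines, not only of the members, were at or below 3.60 CPM in every library, a maximum reached by CCR7. Of 15 receptor genes, 4 were tested (CCR1, CCR4, CCR7 and ACKR2) and 0 were called at any of the 6 time points by edgeR or by DESeq2, with 0 to 2 of the 4 at an unadjusted p under 0.05. CCR2 and CCR6, which bind CCL2 and CCL20, had 0 counts in all libraries, and CX3CR1 had 8 counts in all. CCR3 and CCR10, which bind CCL26 and CCL28, stayed at or below 0.328 and 0.783 CPM. A receptor with 0 counts may still lie below 3 counts per library.

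Among the proteases that act on chemokines, ADAM10 (202.3 to 386.3 CPM) and ADAM17 (70.8 to 163.3 CPM), which shed CX3CL1 from the cell surface, were abundant and not called, ADAM17 with a log2 fold change of 0.54 and an adjusted p of 0.0396 (edgeR) at day 15 of IL-1β, under the threshold of size. CTSS, a cysteine protease, rose during exposure, in order of time, by 1.39, 1.79 and 1.65 in log2 (standard errors 0.24, 0.24 and 0.24), and MMP2, a gelatinase that trims CCL7, at days 15 and 21 by 1.91 and 1.99 (0.58 and 0.54). Of the 7 tested proteases, 1, 2 and 2 were higher during exposure and 0 after withdrawal, by edgeR and by DESeq2, with 2, 1 and 1 at an unadjusted p under 0.05 after withdrawal. The median log2 fold change of the 7 was -0.03, 0.54 and 0.20 during exposure, where that of all tested genes was -0.02, -0.02 and -0.01.

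Subunits and inhibitors of NF-κB rose in part with CCL2 and CCL20. Of 10 genes, 6, 4 and 4 were higher at the 3 time points of exposure and 1, 0 and 1 at those after withdrawal, and none was lower. After withdrawal, 4, 5 and 6 of the 10 had an unadjusted p under 0.05, and DESeq2 called 1, 0 and 2. TNFAIP3, the feedback inhibitor A20, was the gene called by edgeR after withdrawal, with log2 fold changes of 4.05, 3.15 and 3.21 during exposure and 1.27, 0.92 and 1.09 after it (the value of 0.92 not called). NFKBIA, the inhibitor IκBα, rose by 2.17, 1.50 and 1.89 during exposure, NFKBIZ by 2.10, 2.37 and 1.84, and NFKB2 by 1.66, 1.01 and 1.20. At day 30 after withdrawal NFKB2 had 1.05 (adjusted p = 0.0526, edgeR) and was the second gene called by DESeq2. RELB and NFKBIE rose at day 6 of IL-1β by 2.08 and 1.45, and were not called later, with values of 0.88 to 1.22 and 0.82 to 1.04. The 10 genes had medians of 1.56, 0.99 and 1.07 with IL-1β present and of 0.48, 0.39 and 0.60 once it was withdrawn, beside -0.02 to 0.02 for all tested genes.

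Genes of IL-4 and IL-13 signalling, through which CCL26 is best known to be induced, gave 1 call of 9 at each time point of exposure and at day 6 after withdrawal and 0 at days 15 and 30 after withdrawal, by edgeR and by DESeq2, where 1 and 3 of the 9 had an unadjusted p under 0.05. The gene called was IL4R, the receptor subunit shared by both cytokines, with log2 fold changes of 1.31, 1.02, 1.35 and 1.01, and of 0.69 and 0.70 at the last pair of time points, when CCL26 was called. STAT6 (58.9 to 178.4 CPM) was expressed in every library and not called. The median of the 9 genes ran from 0.18 to 0.40. Of 8 interferon regulatory factors and STAT genes, 0 were called at any time point by edgeR or DESeq2, with 1 or 2 of the 8 at an unadjusted p under 0.05.

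**Figure D4:**
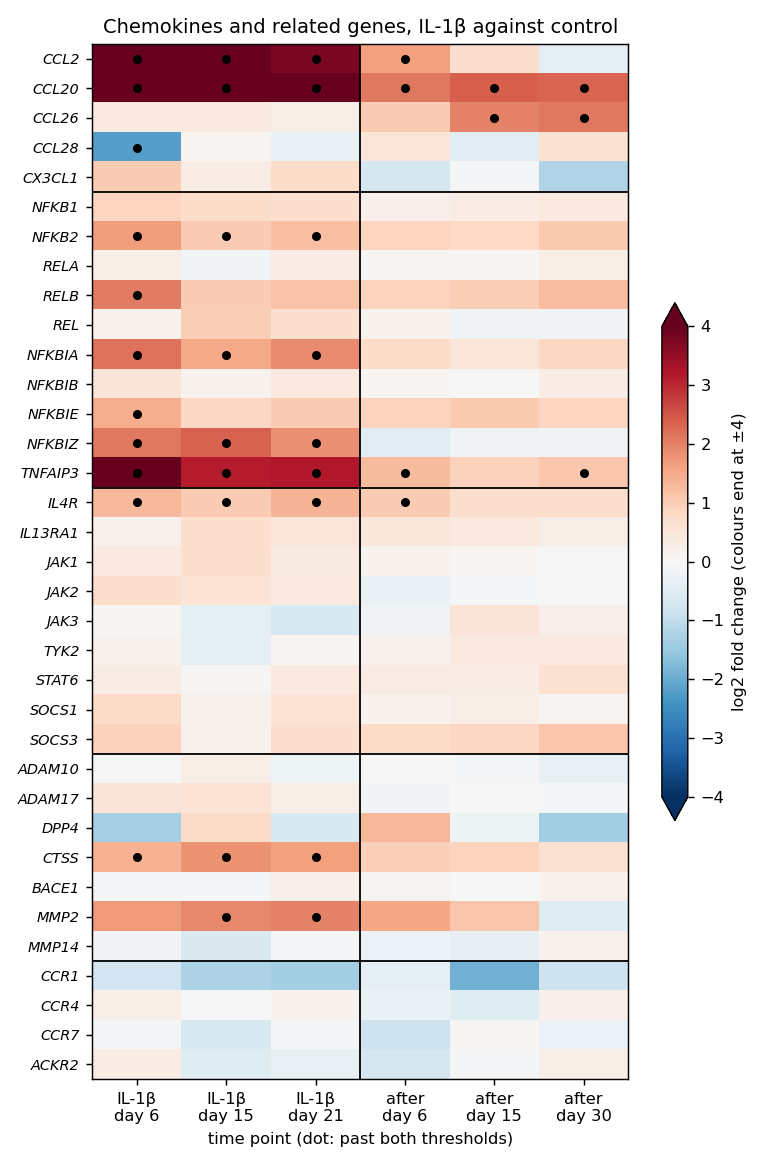
Log2 fold change against control for the 5 tested chemokines and, in blocks below them, the tested genes of NF-κB, IL-4 and IL-13 signalling, the proteases and the receptors, at the 6 time points. Colours run from -4 to 4 and a dot marks a gene past both thresholds. TNFAIP3 and IL4R are the only related genes shown with a dot at day 6 after withdrawal, and TNFAIP3 is the only one at day 30.

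The genes most like each member were taken by Pearson r of log2 CPM over the 36 libraries, which share treatment, depth and mitochondrial share. For CCL20 they were TNFAIP3 (0.974), C15orf48 (0.962) and PID1 (0.955), and for CCL2 TNIP1 (0.963), NAMPTP1 (0.953) and NAMPT (0.95). NAMPTP1 is a pseudogene of NAMPT, and reads of the pair may have been split between them. For CCL26 they were ZDHHC7 (0.874), KIRREL3 (0.87) and CAVIN1 (0.846), and for CX3CL1 GRAMD1A (0.842), ECE1 (0.837) and DUSP16 (0.824). Those of CCL28 reached 0.595, for LINC00485. The choice depended on the measure, since by Spearman's rho 0, 1, 1, 2 and 0 of the 3 genes were again found for CCL2, CCL20, CCL26, CX3CL1 and CCL28. For the pairs of tested members other than CCL2 with CCL20, r ran from -0.436 to 0.435.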

How the data were processed

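Total RNA of 36 samples of A549 cells was made into stranded mRNA libraries. The deposited values are raw counts per Ensembl gene. Per the labels and methods, the authors obtained the counts with bcl2fastq 2.17, TopHat2 2.0.14, Bowtie2 2.2.5 and HTSeq 0.6.1 on GRCh37. The strand setting and annotation release are not given in the sources used here. Of all reads in the tables, 8.48% to 18.6% were on no gene and 2.62% to 4.18% were ambiguous, and the 5 lines that give such totals were left out.

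Symbols and positions came from GENCODE v44lift37 by identifier (55665 of 63677 genes). Genes passing edgeR's filterByExpr over the 12 groups (19180 genes) were scaled by TMM and fitted in 1 quasi-likelihood model with 24 residual degrees of freedom (edgeR 4.0.16, R 4.3.3). Calls needed an adjusted p under 0.05 and a fold change over 2. Contrasts were IL-1β against control at each of 6 time points, the change of that response from day 21 of IL-1β or between time points, and control cells of day 30 after withdrawal against day 6. Log2 CPM used a prior count of 2. Motifs were searched in RefSeq promoter windows. The code was tested on simulated data.

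The members, the lists of related genes and the rules for naming genes (all members, called genes of each list, and the 3 genes most like each member) were chosen with earlier results of these data known. Alternatives were other scalings, filters, thresholds and tests (DESeq2 1.42.0, likelihood ratio, separate fits), the replicate number as a block, the mitochondrial share as a covariate, and leaving out these libraries or each replicate. Leaving out each library alone was chosen after seeing the data. Replicates of a group differed by more than sampling noise (chi-square per degree of freedom 3.54 to 207.86).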

Additional observations from a re-analysis of the deposited data

Results flagged for a closer look

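The response to IL-1β differed between day 21 of exposure and the time points after withdrawal for CCL2 and CCL20, by a test of the difference itself within edgeR's quasi-likelihood model. For CCL20 the difference was -3.45, -3.18 and -3.23 on the log2 scale at days 6, 15 and 30 after withdrawal. For CCL2 it was -3.11 and -4.15 at days 15 and 30. These calls depended on the fit and the libraries. Those of CCL20 were all lost in separate fits, and that of CCL2 at day 15 was lost without any replicate number.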

How the results depend on the processing

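Of 1300 member fold changes recomputed under the alternatives, 1157 kept their direction and side of the threshold, 93 lost a call, 17 gained one and 33 changed sign. Most of the 1300 belong to comparisons not called in the main model, which had no call to lose. The 93 thus come only from the called comparisons. For CCL28, the changes of the response and the control cells were left out of this count. The members called at the 3 time points of exposure (3, 2 and 2) and of withdrawal (2, 2 and 2), and those whose response differed from day 21 at days 6, 15 and 30 after withdrawal (1, 2 and 2), moved as follows. With at least 10 counts required in every library, 1 member, CCL2, was left to test, and the counts were 1, 1 and 1, then 1, 0 and 0, then 0, 1 and 1. With the time points fitted separately, they were 0, 0 and 0 after withdrawal, and 0 and 1 for the differences at days 6 and 30. With total counts in place of TMM, the differences at days 6 and 30 gave 2 and 1, and DESeq2's Wald test and the edgeR likelihood ratio test gave 2 and 3. At an adjusted p under 0.01, days 6 and 30 after withdrawal gave 1 and 1, and the differences 0, 1 and 1. With the mitochondrial share as a covariate, the differences at days 6 and 30 gave 2 and 4, and that between days 6 and 30 after withdrawal 1 in place of 0. Without the libraries of high share, days 6 and 15 after withdrawal gave 3 and 0 and the differences 0, 1 and 1. Day 6 of IL-1β gave 2 in place of 3, without CCL28, with total counts, no filter, DESeq2, separate fits, an adjusted p under 0.01 and without the libraries of high share. The cause of these changes was not tested.

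Leaving out a replicate number or a single library gave 2 to 3 members at day 6 of IL-1β, 2 at days 15 and 21, 0 to 2 at each time point after withdrawal, 0 to 1 for the difference at day 6 and 0 to 2 for those at days 15 and 30, and 0 for the other differences and the control cells. Leaving out all libraries of 1 replicate number, which leaves 2 per group, gave 0 calls at days 6 and 30 after withdrawal for each number.

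Same-numbered libraries deviated together with correlations from -0.336 to 0.718, and at 4 of the 6 time points the lowest was under 0.1. After withdrawal, the low values of day 15 (replicate 3, -0.336) and day 6 (replicate 1, -0.114) involved a control of high mitochondrial share and an exposed library of low share. So did that of day 6 of IL-1β (replicate 2, 0.09), but not that of day 15 of IL-1β (replicate 1, 0.071). The part of the share in these correlations was not tested. The main model did not pair the numbers, although 30 of the 36 libraries correlated best with their own number. With a block for the replicate number, the difference at day 6 gave 2 members in place of 1. With separate fits and the block, the counts were 1 at day 15 of IL-1β, 2, 1 and 0 after withdrawal, and 0 and 1 for the differences at days 6 and 30. With the share and the block together, the differences at days 6 and 30 gave 2 and 3 and that between days 6 and 30 after withdrawal 1.

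None of the values that changed sign was called. Leaving out replicates or single libraries gave ranges through 0 for CX3CL1 at day 15 of IL-1β (-0.10 to 0.911) and day 15 after withdrawal (-0.384 to 0.294), for CCL28 at day 15 (-0.23 to 0.722) and day 21 of IL-1β (-0.713 to 0.022) and day 6 after withdrawal (-0.063 to 1.375), and for CCL2 at day 30 after withdrawal (-0.822 to 0.017). For the change of the response between days 6 and 21 of IL-1β, these ranges were -1.053 to 0.124 for CX3CL1, -0.492 to 0.372 for CCL26 and -0.456 to 0.073 for CCL2, and between days 6 and 30 after withdrawal -0.63 to 0.662 for CCL20. In control cells they were -0.649 to 0.181 for CCL2 and -0.195 to 0.253 for CCL20. Signs also changed for CX3CL1 at day 15 after withdrawal with total counts (0.08) and for CCL28 at day 15 of IL-1β with the share as a covariate (-0.006), with share and block (-0.02) and without the libraries of high share (-0.187). The change between days 6 and 21 of IL-1β turned with the share as a covariate for CX3CL1 (0.16, and 0.066 with the block) and CCL26 (0.083, and 0.216 with the block), and without the libraries of high share for CCL26 (0.085).

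CCL20 and CCL28 rest on few counts in some groups, where counting error limits small differences. The genes most like each member depended on the correlation used.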
